A study of Homo sapiens with 6 samples.

Results

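Caspases are cysteine proteases that cut their substrates after aspartate residues, and they carry out apoptosis. The genes described here are 8 of the 26613 genes listed in the count tables: the caspases CASP2, CASP8, CASP9, CASP10 and CASP6, the caspase inhibitor XIAP, and the mitochondrial proteins DIABLO and CYCS that promote caspase activation. They were chosen by name, with earlier results of the same comparison known, so their differences between the groups are given as a description and support nothing. RNA-seq gene counts came from 6 cultures of 293T cells, an easily transfected line that descends from human embryonic kidney (HEK293) cells. In 3 cultures a synthetic miR-941 duplex, which acts as a copy of that microRNA, was transfected with a cationic lipid at 10 nM (the mimic group), and in 3 a scrambled oligonucleotide was (the mock group), for which no concentration is recorded. Every culture was a lipid transfection of cells plated 24 h earlier, so no untreated cells enter the comparison, and the 6 libraries are 3 against 3 of a single cell line.

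In the mitochondrial route to apoptosis, cytochrome c (CYCS) leaves the mitochondrion and binds APAF1, which assembles with caspase 9 into the apoptosome. In the death receptor route, caspases 8 and 10 are recruited through the adaptor FADD. XIAP binds and inhibits caspases, and DIABLO, once released from mitochondria, binds XIAP and relieves that inhibition. These steps are largely regulated by protein cleavage and localisation, which counts of RNA do not measure.

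The mimic strand is shown because its seed, bases 2 to 8, decides which mRNAs it can pair with. The sequence is that of RefSeq on GRCh38.p14, is shared by 5 MIR941 genes, and has the seed in capitals.
hsa-miR-941: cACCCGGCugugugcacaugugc
The longest annotated coding-transcript 3′ UTR of each of the 8 genes (GENCODE release 29, GRCh38) was searched on the transcript strand for the 7-base match to this seed, GCCGGGT, and for its 6-base part, CCGGGT. None of the 8 held the 7-base match, which 4.87% of the 13015 tested genes with such a 3′ UTR held. CASP2 and CASP8 each held 1 copy of the 6-base match, which 13.4% of those genes held. A match of letters is not a measured binding site, and the build differs from the hg19 named in the submitters' processing notes.

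All 8 genes were counted in every library and passed the filter on low counts. Library totals ranged from 6079420 to 7651046 counts, and 3 counts correspond to 0.392 to 0.493 CPM, the counts scaled to the library total. Levels between genes were compared as CPM per kilobase of annotated exons. On this scale CYCS was highest at 28.5 ± 1.95 (SD over 6 libraries), followed by DIABLO at 11.0 ± 0.78, XIAP at 8.91 ± 0.45, CASP2 at 8.24 ± 0.68, CASP6 at 6.24 ± 0.68, CASP8 at 3.55 ± 0.24, CASP9 at 3.10 ± 0.58 and CASP10 at 0.664 ± 0.056. The ranges of XIAP and CASP2, of CASP2 and CASP6, and of CASP8 and CASP9 overlapped over the 6 libraries, and those of the other neighbours did not. The order depended on the length used. An alternative added after the data were seen used the length of the coding transcript that has the longest 3′ UTR. With it DIABLO (52.75 ± 3.73 CPM per kilobase) was above CYCS (31.0 ± 2.12). The mean of CASP8 (10.1 ± 0.69) was then above those of XIAP (9.36 ± 0.47) and CASP6 (9.00 ± 0.98), but within overlapping SDs. CASP9 and CASP10 were the lowest under both lengths.

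**Figure D1:**
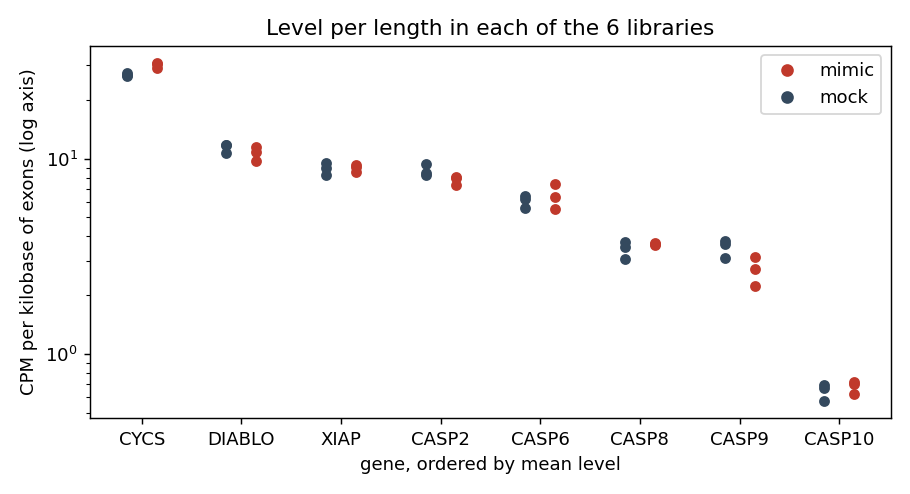
CPM per kilobase of annotated exons (log axis) for the 8 genes in each of the 6 libraries, mock in grey-blue and mimic in red. CYCS lies above the other genes and CASP10 below them in every library.

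Among the initiator caspases, which start the cascade, CASP9 differed most between the groups. CASP9 measured 11.74, 16.5 and 14.3 CPM in mimic replicates 1 to 3 and 19.9, 16.3 and 19.2 CPM in mock replicates 1 to 3. The highest mimic library lay just above the lowest mock library, so the groups overlapped, and the counts behind these values were 89 to 147 per library. The log2 fold change, mimic against mock, was −0.38 ± 0.12 (SE). CASP2, the initiator activated by the PIDDosome, measured 63.8, 58.5 and 64.85 CPM after the mimic and 66.5, 75.1 and 67.9 CPM in the mock group. Every mimic library lay below every mock library, by a log2 fold change of −0.16 ± 0.07. The gap between the highest mimic and the lowest mock library was smaller than the range within either group.

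The death receptor initiators did not pass the test. CASP8 measured 26.1, 26.4 and 26.9 CPM after the mimic and 25.6, 27.0 and 22.3 CPM in the mock group, with mock replicate 3 lowest. CASP10, its close relative, was counted 31 to 39 times per library, at 4.75, 5.45 and 5.35 CPM against 4.34, 5.28 and 5.08 CPM. For both genes the groups overlapped, with log2 fold changes of 0.08 ± 0.10 and 0.08 ± 0.21. At this depth the 95% interval for CASP10 ran from −0.33 to 0.49, so these counts fix neither the size nor the direction of a change. Over the 6 libraries CASP8 was 4.60 to 6.20 times CASP10 per kilobase of exons, and 10.04 to 13.5 times with the coding-transcript lengths.

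CASP6, an executioner caspase that cuts nuclear lamins, measured 10.7, 12.3 and 14.3 CPM after the mimic and 12.5, 10.8 and 12.1 CPM in the mock group. The groups overlapped, and the spread was wider in the mimic group (SD 1.82 against 0.861 CPM). The log2 fold change was 0.06 ± 0.14. Exons of CASP6 overlap those of MCUB on the opposite strand by 105 bases. MCUB was counted at 192% of CASP6 with a log2 fold change of −0.04. No source used here says whether reads were counted by strand.

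XIAP measured 83.3, 77.1 and 81.4 CPM after the mimic and 74.5, 85.65 and 80.7 CPM in the mock group. The mimic libraries lay within the range of the mock libraries, and the 95% interval of the log2 fold change ran from −0.12 to 0.13. DIABLO, the XIAP antagonist, measured 73.45, 66.2 and 77.3 CPM against 80.0, 72.2 and 79.7 CPM. Its groups overlapped, with a log2 fold change of −0.10 ± 0.07. DIABLO shares 1139 exon bases with the same-strand gene ENSG00000256861, counted at 146% of its level, and 970 with B3GNT4 on the opposite strand, counted at 69.2%. Reads from these genes may not have been told apart. Their log2 fold changes were −0.03 and −0.06.

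CYCS measured 137.9, 129.5 and 136.2 CPM after the mimic and 122.1, 119.6 and 117.5 CPM in the mock group. All mimic libraries lay above all mock libraries, with a log2 fold change of 0.17 ± 0.05, or 12.3%. Processed pseudogenes of CYCS can share its reads. The 14 that were counted together had 51 to 75 counts per library, or 5.93% to 7.55% of the CYCS count. With these copies added, the 3 mimic libraries (139.3 to 147.8 CPM) still lay above the 3 mock libraries (126.4 to 129.5 CPM). Within a library CYCS was 2.68 to 2.97 times DIABLO per kilobase of exons after the mimic and 2.24 to 2.52 times in the mock group. With the coding-transcript lengths CYCS was below DIABLO, at 0.61 to 0.677 times after the mimic and 0.51 to 0.573 times in the mock group.

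**Figure D2:**
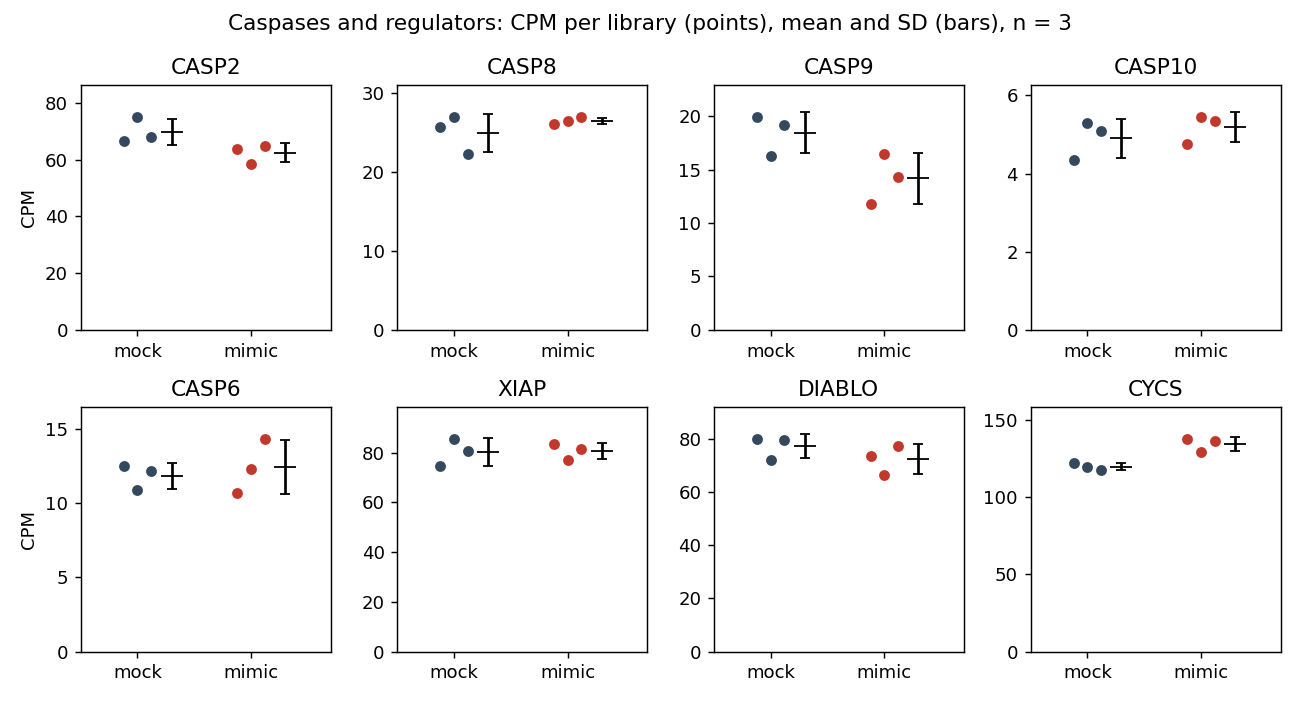
CPM of the 8 genes in each library (points; mock grey-blue, mimic red) with the mean and SD of 3 libraries (bars); each axis starts at 0. Groups are apart for CASP2 and CYCS and overlap for the other 6.

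In the fit across all genes (edgeR's quasi-likelihood test, Benjamini-Hochberg threshold 0.05), 2 of the 8 passed: CYCS, which rose, and CASP9, which fell. Of all 15607 genes tested 13.0% passed, and because the 8 were chosen with this comparison known, nothing is read from their count. The groups did not overlap for 2 of 8 genes, against 28.3% of all tested genes. The median log2 fold change of the 8 was 0.04, against 0.00176 over all tested genes. Neither call held throughout. With DESeq2's Wald test none of the 8 passed, and no DESeq2 value was recorded for CASP10. CASP9 did not pass without mimic replicate 1 (log2 fold change −0.26), mock replicate 1 (−0.32) or mock replicate 3 (−0.36). CYCS did not pass without mimic replicate 1 (0.15), mock replicate 1 (0.18), mock replicate 2 (0.17) or mock replicate 3 (0.15).

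Other genes of the caspase pathway, in lists of 103 names that hold none of the 8, gave 83 tested genes, of which 6 rose and 4 fell, or 7.23% and 4.82%, against 6.80% and 6.19% of all tested genes. Their median log2 fold change was −0.03. The lists were drawn up with earlier results of these data known.

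Among the other caspases and caspase-like genes, of which only some are reported here, the inflammatory caspase CASP4 (−0.36 ± 0.17), the caspase 8 inhibitor CFLAR (−0.02 ± 0.10) and the paracaspase MALT1 (−0.12 ± 0.06) did not pass. CFLAR and MALT1 each have 1 GCCGGGT match in the 3′ UTR.

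Of 14 death receptor, ligand and adaptor genes 1 rose (7.14%, against 6.80% of all tested genes) and none fell (against 6.19%). TNFRSF10D, a decoy receptor for the ligand TRAIL, rose from 59.2 ± 3.72 CPM (SD, n = 3) to 74.8 ± 5.31 CPM (adjusted p = 0.000245 by edgeR). FADD, the adaptor of caspases 8 and 10, had a log2 fold change of 0.23 ± 0.09 and did not pass (adjusted p = 0.0871 by edgeR). Of 7 genes that form or regulate caspase-activating platforms 1 rose (14.3%, against 6.80% of all tested genes). This was PTMA, prothymosin alpha, reported to restrain apoptosome formation, from 747 ± 36.0 to 1070.0 ± 80.9 CPM (log2 fold change 0.52 ± 0.05, adjusted p = 6.13e-13 by edgeR). PTMA has counted pseudogenes that can share its reads, and its rise was not recomputed with them added. APAF1, the scaffold that activates caspase 9, was at −0.12 ± 0.06, and PIDD1, of the CASP2 platform, at 0.21 ± 0.07, and neither passed. Exons of PIDD1 overlap those of RPLP2 on the opposite strand by 107 bases, and RPLP2 was counted at 511% of PIDD1.

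No tested gene passed among 4 other IAP genes, 5 IAP antagonists and XIAP partners, 4 anti-apoptotic, 3 pore-forming and 8 BH3-only BCL2 family genes or 3 inflammasome genes. Of all tested genes 13.0% passed. BIRC6 and BIRC5, the other IAP genes with the highest mean CPM (not scaled by length), had log2 fold changes of −0.04 ± 0.05 and −0.01 ± 0.05. The XIAP partners GSPT1 and TAB1 were at −0.11 ± 0.05 and −0.06 ± 0.07. MCL1 (−0.09 ± 0.05) and BCL2L2 (0.07 ± 0.08), which block cytochrome c release, had the highest mean CPM of the anti-apoptotic genes. BCL2L2 shares 813 exon bases with the same-strand gene BCL2L2-PABPN1, counted at 291% of its level. BAX and BAK1, which form the pore, were at −0.13 ± 0.06 and −0.14 ± 0.08, and the BH3-only genes PMAIP1 and BCL2L11 at −0.08 ± 0.05 and −0.08 ± 0.07. The inflammasome genes CARD8 and NLRP1 were at 0.05 ± 0.07 and −0.27 ± 0.16.

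Of 13 genes of cytochrome c maturation, cristae and the outer mitochondrial membrane, 2 fell (15.4%, against 6.19% of all tested genes) and none rose (against 6.80%). VDAC1, an outer membrane channel, fell from 256 ± 6.47 to 222 ± 3.11 CPM (adjusted p = 0.0011 by edgeR). ENDOG, a mitochondrial nuclease, fell from 32.2 ± 2.86 to 26.4 ± 2.45 CPM (adjusted p = 0.0342 by edgeR). SPOUT1 overlaps ENDOG on the opposite strand and was counted at 287% of its level. The ENDOG call ended under DESeq2 (adjusted p = 0.147) and without mimic replicate 1 (0.201), mimic replicate 3 (0.0556), mock replicate 2 (0.0735) or mock replicate 3 (0.206), as adjusted p by edgeR. HCCS, which attaches haem to cytochrome c, was at −0.11 ± 0.09 and did not pass.

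Among 17 genes listed for caspase substrates, a list that also holds the caspase-activated nuclease DFFB, 3 rose and 1 fell. These are 17.65% and 5.88%, against 6.80% and 6.19% of all tested genes. The scramblase gene XKR8 fell from 24.8 ± 3.70 to 16.8 ± 0.704 CPM (adjusted p = 0.000174 by edgeR). The kinase PAK2 rose from 86.8 ± 4.78 to 105.7 ± 11.1 CPM (adjusted p = 0.00104 by edgeR). GOLGA3, a Golgi protein, rose by 0.18 ± 0.05, and DFFA, the inhibitor of the caspase-activated nuclease, by 0.19 ± 0.06, with adjusted p of 0.0127 and 0.01285 by edgeR. GOLGA3 shares 125 exon bases with the same-strand gene CHFR, counted at 36.5% of its level. DFFA shares 204 with PEX14 on the opposite strand, counted at 33.1%. DFFA has 2 GCCGGGT matches in its 3′ UTR and GOLGA3 has 1. A relation between such matches and the direction of change was not tested. The GOLGA3 call ended under DESeq2 (adjusted p = 0.0625) and, with edgeR, without mimic replicate 1 (adjusted p = 0.0547), mimic replicate 2 (0.0602), mock replicate 1 (0.0667) or mock replicate 2 (0.0663). The DFFA call ended under DESeq2 (0.0715) and without mimic replicate 3 (0.0542) or mock replicate 1 (0.1) as adjusted p.

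**Figure D3:**
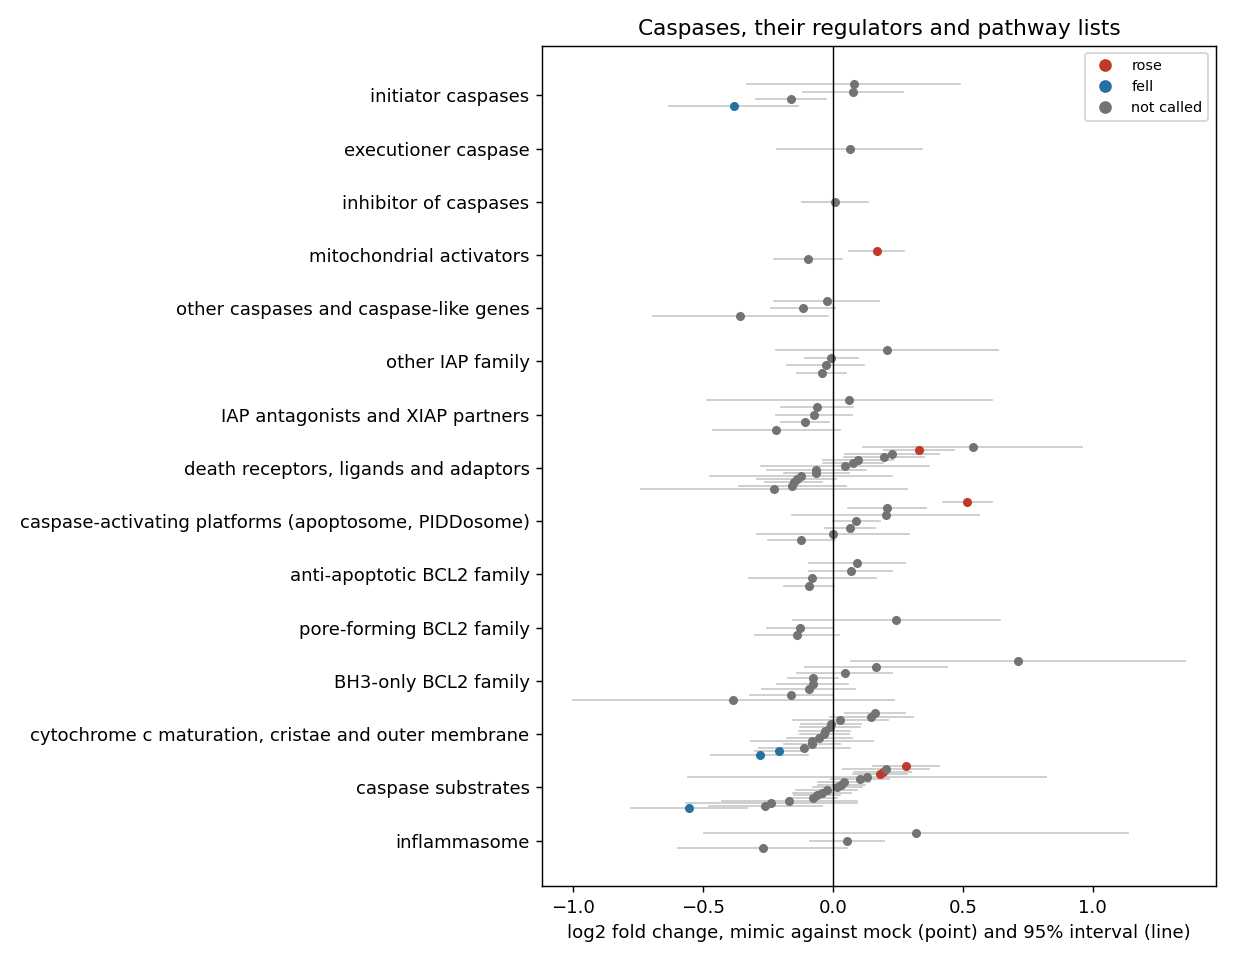
Log2 fold change, mimic against mock (points), with 95% intervals (lines) for the 8 genes (upper 4 rows) and genes of 11 pathway lists that are reported here; red rose, blue fell and grey did not pass the edgeR threshold. Most intervals include 0, and XKR8, at −0.56, is the lowest point that passed.

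For 7 of the 8 genes, those with the most similar profile over the 6 libraries, by Pearson r of log2 CPM among 12885 tested genes averaging 5 CPM or more, were PARP4 for CASP2 (0.989), LHFPL6 for CASP8 (0.992), TMED1 for CASP9 (0.991), BBS1 for CASP10 (0.975), KLHL8 for XIAP (0.969), SBNO1 for DIABLO (0.995) and SLC4A11 for CYCS (0.997). These are the highest of many correlations over 6 points that share libraries and group, and are given as a description. For CYCS 212 genes had an r above 0.95, and for the other 7 between 10 and 42 did.

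The line was checked against markers. The filament genes NEFM, INA and VIM were counted at means of 55.9, 38.35 and 982 CPM in the mock group, and PAX2 at 6.57 CPM. After the mimic NEFM rose to 81.8 CPM, while INA (log2 fold change −0.21 ± 0.09), VIM (0.08 ± 0.04) and PAX2 (0.38 ± 0.18) did not pass. NEFL was not matched in the tables. Of 12 markers of blood, liver and fibroblasts, 5 were not listed in any table and the others had mock means of 0.0546 to 2.51 CPM, except COL1A1 at 36.3 CPM.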

How the data were processed

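The authors deposited 1 table of raw counts for each library, by Ensembl gene and unscaled. Per the submitters' processing notes the tools were STAR and edgeR and the build hg19. No source used here gives the counting program, annotation or strand setting. Genes absent from a table were taken as 0. Symbols were found for 25141 of 26613 genes in a table of gene names, and GENCODE release 29 held 25236. Counts were filtered with filterByExpr (15607 genes, 99.7% of counts), scaled with TMM (factors 0.994 to 1.006) and tested with edgeR 4.0.16 (quasi-likelihood, robust, group only, two-sided, R 4.3.3), Benjamini-Hochberg adjusted across the 15607 genes. DESeq2 1.42.0 was an alternative. SEs come from the test statistic. The test was tested on simulated counts.

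The 8 genes and the pathway lists were chosen with earlier results of these data known. Named pathway genes were, per list, up to 6 that passed, by smallest p, or the 2 with the highest mean CPM where none passed. FADD, APAF1, PIDD1, HCCS, CASP4, CFLAR and MALT1 were added for their role after values were seen. The labels call the transfections independent replicates. Within a group, library pairs differed by 1.27 to 2.38 times sampling noise. The highest values were those of mimic replicate 3 against mimic replicate 1 (2.045) and mimic replicate 2 (2.38). Some genes and sequences that these rules select are not reported here.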

Additional observations from a re-analysis of the deposited data

How the results depend on the processing

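For the 8 genes and the 10 changed pathway genes, 192 of 215 recomputed values stayed on their side of the threshold and 23 no longer passed. The 215 hold no DESeq2 value for CASP10, because none was recorded. The 192 include all values of the 6 of the 8 genes that had no call to lose. All 23 belong to CYCS, CASP9 and the changed pathway genes, which kept their sign in every recomputed value. Among genes that did not pass, the sign turned for CASP6 without mimic replicate 3 (−0.04), for CASP10 without mock replicate 1 (−0.00659) and for XIAP under 4 alternatives, farthest without mock replicate 1 (−0.05). RLE factors, library totals, no filter and a minimum mean of 5 CPM ended none of these 18 genes' calls or non-calls. DESeq2 called 1018 genes in all and 0 of the 8. Leaving out 1 library gave 1302 (without mock replicate 1) to 2061 genes (without mimic replicate 3) in all and 0 to 2 of the 8. The same replicate numbers stood in both groups, but libraries with the same number did not deviate together (correlations 0.0933, −0.0816 and −0.0469), so they were not treated as paired. With the replicate block 1819 genes passed in all, and 2 of the 8. Depth limits CASP10, CASP6 and CASP9 most, with 31 to 147 counts per library.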
